A study of Oncorhynchus mykiss with 12 samples.

Results

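The miR-17, miR-18, miR-20, miR-93 and miR-106 microRNAs of rainbow trout liver are the subject here. Members were the 10 sequences with the most counts, summed over 12 libraries, among the 29 sequences in the deposited table whose names matched a rule. Such a name holds miR, with a capital R, before any of these family numbers, and has no -p5 or -p3 tag. The table held 1696 sequences in all. Summed counts therefore chose the members, and their levels are given as a description. The tenth member had 89.5 counts in the 12 libraries together, and the first sequence left out, ssa-miR-106b-3p_R-1_1ss3TC, had 64. The 10 members held 96.3% of the counts of the 29 sequences and 0.0540% of all counts in the table.

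Small RNA of the liver was sequenced from 12 adult wild-type trout, for which the labels give the strain as Walbaum. Each of 3 groups had 4 fish and 1 library per fish. The highCHO group had been acutely refed with a high level of carbohydrate (fish 38, 45, 49 and 50), the noCHO group had been acutely refed with no carbohydrate (fish 20, 21, 31 and 33), and the fasted group had gone 4 days without food (fish 7, 8, 10 and 13). The comparisons address how refeeding, and the carbohydrate in it, bears on liver microRNA in a fish that handles dietary glucose poorly. The time between the meal and sampling is not given in the sources used here.

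A microRNA is cut from a hairpin precursor, which can yield a strand from its 5′ side (5p) and one from its 3′ side (3p). Bases 2 to 8 of the mature strand, the seed, are the main determinant of which messenger RNAs it represses. In vertebrates the microRNAs described here are made from the miR-17-92 cluster and its paralogs, whose transcripts also hold miR-19, miR-25, miR-92 and miR-363. The clusters are known in mammals for promoting proliferation and for repressing cell-cycle and pro-apoptotic genes, and their 5p strands are usually the more abundant for miR-17, miR-18, miR-20, miR-93 and miR-106.

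The 10 sequences are shown because they fall into a few seeds. They are printed as deposited, 5′ to 3′ with T for U, with the seed in capitals. The prefixes are those of Atlantic salmon (ssa), zebrafish (dre) and common carp (ccr), and the marks that close a name, such as R-1, are the authors' record of length and base differences from the database sequence. The 6 members of the 5p strand come first.
ssa-miR-17-5p_R-1: cAAAGTGCttacagtgcaggta
ssa-miR-20a-5p: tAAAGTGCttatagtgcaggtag
ssa-miR-93a-5p: aAAAGTGCtgtttgtgcaggtag
ssa-miR-106a-5p: tAAAGTGCttacagtgcaggta
dre-miR-18b-5p_1ss11TC: tAAGGTGCatctagtgcagata
ssa-miR-18a-5p_R-1: tAAGGTGCatctagtgtagtt
The 4 members of the 3p strand follow.
ssa-miR-17-3p_R-1: cTGCAGTGaaggcactttaagc
ccr-miR-20a-3p_R-1_1ss22GA: aCTGCAGTgtgagcacttgaaa
ssa-miR-20a-3-3p_R-2: aCTGCAGTgtgagcacttgat
ssa-miR-106a-3p_R-1: cCGCAATGtgagcacttctgt

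The 5p members carried 2 seeds. The seed AAAGTGC was shared by the miR-17, miR-20a, miR-93a and miR-106a members, and AAGGTGC by both miR-18 members. Positions below count from 1 at the 5′ end, without gaps. ssa-miR-17-5p_R-1 and ssa-miR-106a-5p differed at 1 of 22 positions, C1T, which lies outside the seed. ssa-miR-20a-5p and ssa-miR-106a-5p differed by T12C over their shared 22 bases, and the miR-18 members by C17T and A20T over their shared 21 bases. The 3p members had 3 seeds among 4 sequences. The pair of miR-20a 3p sequences differed by A21T alone over 21 bases, so they are alike up to their 3′ end. The first 8 bases of ssa-miR-17-3p_R-1 are bases 2 to 9 of the miR-20a 3p pair, so its seed is that stretch read from 1 base further on.

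The likeness of these sequences bears on the counts. The deposited counts are estimates, and many are fractions. These are read here as reads that fit more than 1 sequence and were divided among them, by a rule that is not given. For ssa-miR-17-5p_R-1, ssa-miR-20a-5p and ssa-miR-106a-5p only 1 of 12 values was whole, against 12 of 12 for each miR-18 member. For ssa-miR-93a-5p and the 3p members 4 to 6 of 12 values were whole. The split between the closely related members is therefore uncertain, and sums over each 5p seed are given beside single members. The miR-20a 3p pair is summed only in the strand ratios. Of the counts of ssa-miR-17-5p_R-1 and ssa-miR-106a-5p together, ssa-miR-17-5p_R-1 took 79.6 ± 2.49% in highCHO fish, 79.6 ± 4.19% in noCHO fish and 81.9 ± 0.621% in fasted fish (mean ± SD, n = 4 each).

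Counts assigned to microRNA sequences were 197684 to 3057706 per library, and the members held 95.8 (highCHO fish 49) to 1767 of them (noCHO fish 33). Levels are CPM, the share of a library's counts scaled to 1e+06 after trimmed-mean (TMM) normalization. A single count equalled 4.42 CPM in highCHO fish 49, the shallowest library, and 0.364 to 1.20 CPM elsewhere, so low values rest on few reads. The hepatocyte microRNA miR-122 stood at 203355 to 357204 CPM in highCHO fish, 294879 to 438470 CPM in noCHO fish and 231717 to 272512 CPM in fasted fish, without overlap between noCHO and fasted fish. The epithelial list (miR-200, miR-429, miR-141 and miR-203, 26 sequences, none of its 4 families at 0) summed to 2151 to 6984 CPM in highCHO fish, 1671 to 1992 CPM in noCHO fish and 2002 to 2934 CPM in fasted fish. After TMM scaling noCHO fish thus lay below both other groups without overlap, but as a plain share of counts they overlapped with both. Inserts under 15 nt made up 14.2 to 32.2% of adapter-containing reads in highCHO fish, 6.18 to 13.0% in noCHO fish and 7.63 to 11.6% in fasted fish. The libraries also fell into 2 sets by the share of a let-7 variant among let-7a-like reads, 3.32 to 3.81% in all highCHO fish and noCHO fish 31 and 33, against 0.942 to 1.42% in noCHO fish 20 and 21 and all fasted fish. Summed miR-143, miR-145, miR-199 and miR-214, the fibroblast and smooth muscle list (26 sequences, none of its 4 families at 0), ran from 61876 to 77844 CPM in highCHO fish and from 48261 to 61184 CPM in fasted fish, without overlap. This gap too depends on the TMM scaling. The pancreas list (miR-216, miR-217, miR-375 and miR-7, 26 sequences) summed to 14402 CPM in highCHO fish 38 and to 154 to 358 CPM in the other 11 libraries. The part that these differences have in the results below was not tested, beyond the values given beside them.

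The members were low in abundance. By summed counts the rarest of them ranked 371 among the 1696 sequences. Together they reached 389 ± 67.2 CPM in highCHO fish, 572 ± 68.1 CPM in noCHO fish and 596 ± 41.2 CPM in fasted fish (n = 4 each). The highest highCHO library, fish 38 with 455 CPM, lay below the lowest noCHO library (fish 20, 502 CPM) and the lowest fasted library (fish 7, 540 CPM). The gap to noCHO fish depends on the TMM scaling. As a plain share of microRNA counts, the members held 0.0236 to 0.0510% in highCHO fish and 0.0412 to 0.0713% in noCHO fish. In fasted fish they held 0.0568 to 0.0760%. By that share highCHO and noCHO fish overlapped, with noCHO fish 20 below highCHO fish 38 and 49. In CPM, the mean of highCHO fish was 0.653 of the fasted mean and 0.681 of the noCHO mean, and that of noCHO fish 0.959 of the fasted mean. In bulk liver, fewer cells that make a microRNA and less of it per cell cannot be told apart.

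**Figure D1:**
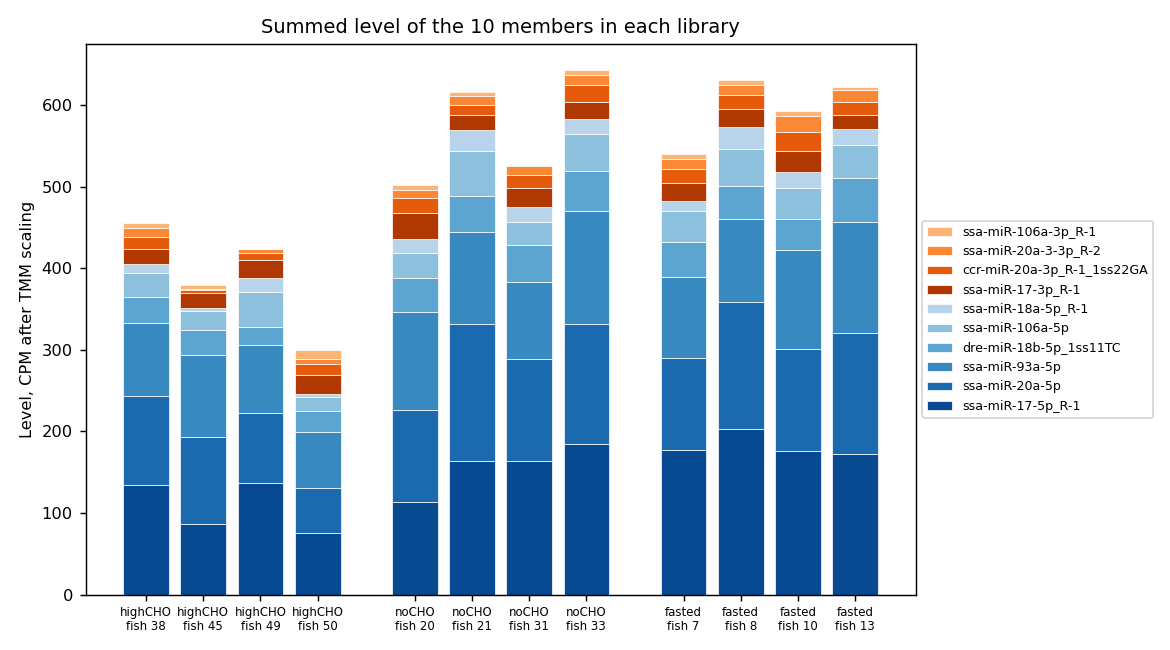
Stacked bars give the level of each member (CPM after TMM scaling, y axis) in each of the 12 libraries (x axis, by group and fish), with 5p members in blue and 3p members in orange. The 4 highCHO bars end between 299.8 and 455 CPM, all below the 8 bars of noCHO and fasted fish, which end between 502 and 643 CPM.

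The 4 members with the seed AAAGTGC made up most of this level. Their sum was 311 ± 65.2 CPM in highCHO fish, 451.2 ± 67.1 CPM in noCHO fish and 472 ± 36.5 CPM in fasted fish. The sum does not depend on how reads were split among these 4. After TMM scaling the highest highCHO library (362 CPM) again lay below the lowest noCHO (377 CPM) and fasted (426 CPM) libraries. The miR-18 seed summed to 36.1 ± 6.31 CPM in highCHO fish, 64.5 ± 4.67 CPM in noCHO fish and 63.6 ± 7.88 CPM in fasted fish, with 42.7 CPM at most in highCHO fish against 58.6 and 56.3 CPM at least in the other groups. No test was run on these sums, since the members were chosen on summed counts with earlier results known.

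In order of level, ssa-miR-17-5p_R-1, ssa-miR-20a-5p and ssa-miR-93a-5p led in every library, with ssa-miR-17-5p_R-1 first in 9 of 12. In fasted fish they reached 182 ± 14.4, 135 ± 19.5 and 114 ± 17.6 CPM. The lowest fasted value of miR-17 (173 CPM) lay above the highest of miR-20a (154.6 CPM), while miR-20a and miR-93a overlapped. Next in fasted fish came dre-miR-18b-5p_1ss11TC and ssa-miR-106a-5p, at 44.1 ± 7.21 and 40.3 ± 3.803 CPM, which overlapped each other. Then ssa-miR-17-3p_R-1, ssa-miR-18a-5p_R-1 and ccr-miR-20a-3p_R-1_1ss22GA lay together at 21.9 ± 3.47, 19.5 ± 5.73 and 18.7 ± 3.09 CPM. ssa-miR-20a-3-3p_R-2, at 14.4 ± 3.01 CPM, overlapped this trio, and ssa-miR-106a-3p_R-1, at 5.62 ± 0.856 CPM, lay below all of them. All members are 21 to 23 nt long, so length hardly enters this order.

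The first comparison asks how livers after the high-carbohydrate meal differed from fasted livers. All 9 members that entered the test had a lower fitted level in highCHO fish, by 1.07-fold to 2.47-fold, but none passed. ssa-miR-106a-3p_R-1 was too low to enter. The test was edgeR's quasi-likelihood test across 340 sequences, with Benjamini-Hochberg adjustment and a threshold of 0.05, and the 0 of 9 stands against 6.18% of all tested sequences called. DESeq2 called 1 of the 9 members, ssa-miR-17-5p_R-1 (adjusted p = 0.0325), and 35 of all 340 sequences. At an unadjusted p under 0.05, 6 of the 9 were lower, against 14.1% of all sequences tested. That count was 3 without fasted fish 8 and without fasted fish 13 (3 to 6 over the fits without 1 library), 2 with the library set as a term, 3 with a term for short inserts and 3 with no filter on low counts. In that order, all sequences at that level, in either direction, numbered 71 of 359, 84 of 343, 70 of 340, 74 of 340 and 194 of 1576. The main fit had 92 of 340 in either direction. After TMM scaling the groups did not overlap, with highCHO lower, for 5 of the 9, against 10.6%, and 9 of 9 had a log2 fold change below 0, against 48.8%. ssa-miR-20a-5p is among the 5 only with that scaling. It took 209.5 of 1713317 counts in highCHO fish 38 and 182.6 of 1538460 in fasted fish 7, the larger plain share being that of highCHO fish 38. The miR-20a 3p pair gave 2 of the 5 and 2 of the 6. Members that share split reads are not independent of each other, so these counts are a description. The median log2 fold change of the 9 was −0.67, and that of all tested sequences 0.03.

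Among the 5p members, ssa-miR-17-5p_R-1, the founding member of the family, had 135, 86.3, 137 and 75.1 CPM in highCHO fish 38, 45, 49 and 50. It had 114, 164, 163 and 185 CPM in noCHO fish 20, 21, 31 and 33, and 177, 204, 175 and 173 CPM in fasted fish 7, 8, 10 and 13. Every highCHO fish lay below every fasted fish, and fish 45 and 50 lay well below fish 38 and 49. Against fasted fish its log2 fold change was −0.76 (SE 0.24, edgeR adjusted p = 0.0753), about 59.1% of the fasted level. Without highCHO fish 38, the library with the pancreas microRNAs, it passed (log2 −0.91, SE 0.25, adjusted p = 0.0481). It was smaller without highCHO fish 45 (−0.66, adjusted p = 0.183), without highCHO fish 50 (−0.62, adjusted p = 0.149) and without fasted fish 8 (−0.67, adjusted p = 0.175).

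ssa-miR-20a-5p, which shares the seed and a cluster with miR-17 in other vertebrates, had 109, 106.4, 85.4 and 55.0 CPM in highCHO fish. It had 113, 167, 125.98 and 147 CPM in noCHO fish, and 113, 154.6, 125.45 and 148 CPM in fasted fish. After TMM scaling all 4 highCHO values lay below both other groups, the nearest gap being that between highCHO fish 38 and noCHO fish 20. Its log2 fold change against fasted fish was −0.60 (SE 0.24, adjusted p = 0.148).

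ssa-miR-106a-5p, 1 base from miR-17, had 28.9, 23.02, 42.0 and 17.9 CPM in highCHO fish, 31.6, 55.1, 29.0 and 45.7 CPM in noCHO fish and 37.3, 45.7, 38.1 and 40.0 CPM in fasted fish. Fish 49, with 9.50 counts, was the highCHO fish that overlapped the fasted group, and the log2 fold change was −0.57 (SE 0.29, adjusted p = 0.233). ssa-miR-93a-5p, of the miR-106b-25 cluster in other vertebrates, had 89.8, 102, 83.9 and 69.7 CPM in highCHO fish, 119, 113, 94.0 and 138 CPM in noCHO fish and 98.6, 102, 121 and 136 CPM in fasted fish. This was the smallest difference among the 5p members, with a log2 fold change of −0.41 (SE 0.20, adjusted p = 0.212) and highCHO fish 45 inside the fasted range.

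The miR-18 members, whose seed differs from that of miR-17 by 1 base, differed in how evenly the fish lay. dre-miR-18b-5p_1ss11TC had 31.8, 30.0, 22.1 and 24.8 CPM in highCHO fish, 41.7, 44.3, 45.0 and 48.4 CPM in noCHO fish and 43.9, 40.6, 37.6 and 54.2 CPM in fasted fish. After TMM scaling its highCHO fish lay close together and below every other fish. These values rest on 61, 26, 5 and 26 counts. It had the smallest adjusted p of the members against fasted fish (log2 −0.67, SE 0.20, adjusted p = 0.0671). ssa-miR-18a-5p_R-1 had 10.9, 3.46, 17.7 and 3.82 CPM in highCHO fish, 16.9, 25.2, 18.3 and 18.2 CPM in noCHO fish and 12.4, 26.3, 20.5 and 18.9 CPM in fasted fish. Its highCHO values rest on 21, 3, 4 and 4 counts, and fish 49 lay among the fasted fish. It had the lowest log2 fold change of the members, −1.31 (SE 0.43, adjusted p = 0.0836), and passed without fish 49, the library with the fewest counts (log2 −1.50, SE 0.40, adjusted p = 0.0466). Over the fits without 1 library it ran from −1.69 to −1.03, with an adjusted p of up to 0.1995.

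**Figure D2:**
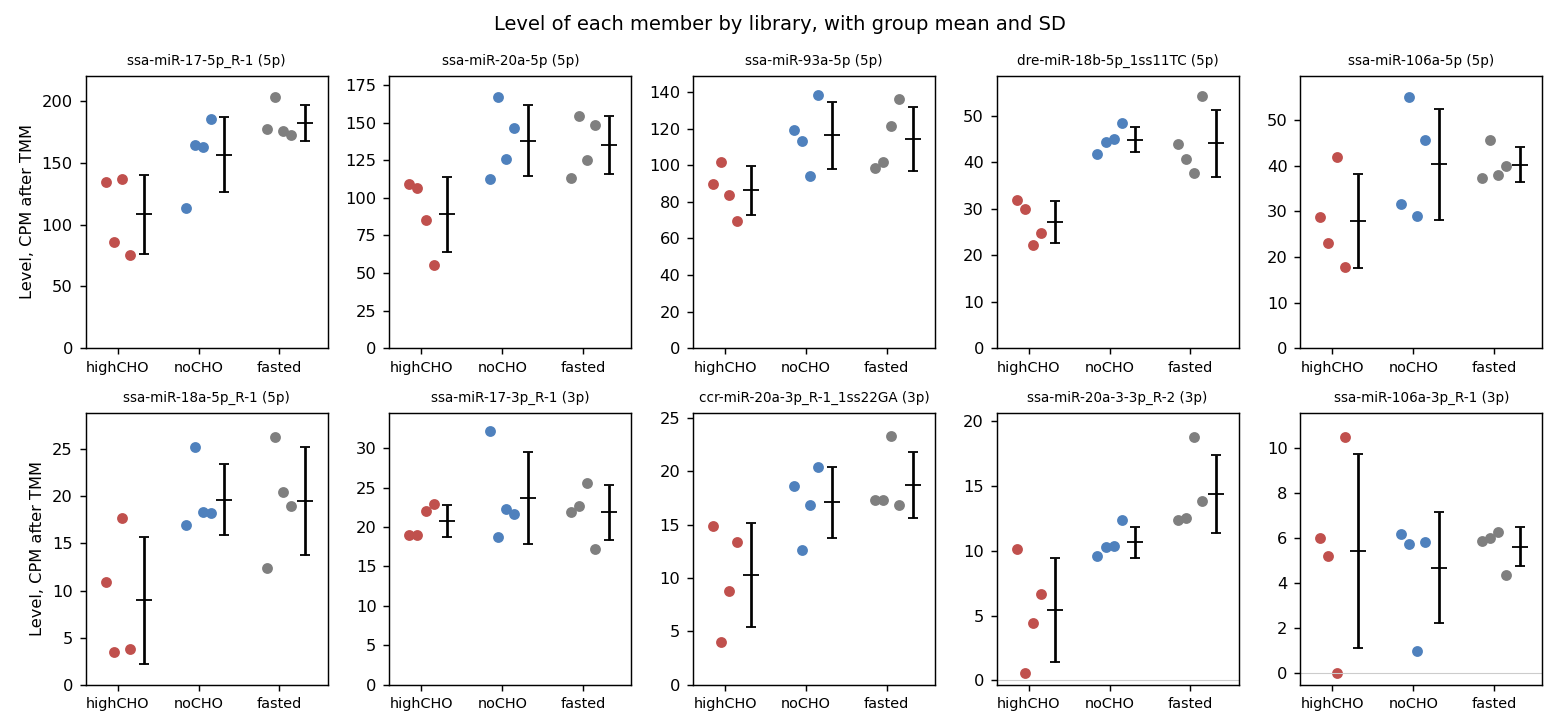
Points give the level of each member (CPM after TMM scaling, y axis) in single libraries, and bars the mean ± SD of 4 libraries, with highCHO, noCHO and fasted fish from left to right and 1 panel per member. For dre-miR-18b-5p_1ss11TC the highCHO points (22.1 to 31.8 CPM) lie below all others, while for ssa-miR-17-3p_R-1 they lie among them (19.005 to 22.9 CPM).

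The 3p members differed among themselves. ssa-miR-17-3p_R-1, the strand opposite miR-17-5p, had 19.005, 19.04, 22.1 and 22.9 CPM in highCHO fish, 32.1, 18.7, 22.3 and 21.6 CPM in noCHO fish and 21.9, 22.7, 25.6 and 17.2 CPM in fasted fish. No highCHO fish lay outside the fasted range, and the log2 fold change was −0.09 (SE 0.23, adjusted p = 0.896). The sign of this small value turned with the library set as a term (0.070), with sequences summed by mature name (0.077) and without fasted fish 10 (0.031).

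The pair of miR-20a 3p sequences, by contrast, had no overlap between highCHO and fasted fish. ccr-miR-20a-3p_R-1_1ss22GA had 14.8, 4.04, 8.83 and 13.4 CPM in highCHO fish, 18.6, 12.6, 16.8 and 20.4 CPM in noCHO fish and 17.3, 17.3, 23.3 and 16.9 CPM in fasted fish (highCHO against fasted, log2 −0.73, SE 0.33, adjusted p = 0.175). ssa-miR-20a-3-3p_R-2 had 10.2, 0.577, 4.42 and 6.68 CPM in highCHO fish, 9.58, 10.3, 10.4 and 12.4 CPM in noCHO fish and 12.4, 12.6, 18.8 and 13.8 CPM in fasted fish (log2 −1.18, SE 0.52, adjusted p = 0.171). The lowest value of each was that of highCHO fish 45, which rests on 3.50 and 0.5 counts. Without that fish the log2 fold changes were −0.44 (SE 0.28) for the A-ended and −0.75 (SE 0.32) for the T-ended sequence. Without highCHO fish 38 they were −0.99 (SE 0.38) and −1.90 (SE 0.62). The A-ended sequence took 70.1 ± 12.1% of the counts of the pair in highCHO fish, 61.3 ± 4.58% in noCHO fish and 56.7 ± 1.74% in fasted fish, again with few counts in highCHO fish.

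ssa-miR-106a-3p_R-1, the rarest member, was not tested. It had 5.99, 5.19, 0 and 10.5 CPM in highCHO fish, 6.20, 5.73, 0.990 and 5.82 CPM in noCHO fish and 5.87, 5.98, 6.26 and 4.36 CPM in fasted fish. The 0 of highCHO fish 49 allows a level of up to 13.2 CPM (3 counts, counting error only). The 3 groups overlapped, with 0 to 16 counts in a library.

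The second comparison sets the high-carbohydrate meal against the meal without carbohydrate. Again all 9 tested members had a lower fitted level in highCHO fish, against 50.0% of all sequences. None of the members passed with edgeR, against 2.35% of all sequences called. DESeq2 called none of the 5 members to which it gave an adjusted p, and gave none to the other 4 members. Of all 340 sequences it called 22. At an unadjusted p under 0.05, 4 of 9 were lower (10.6% of all sequences), all of them 5p members. That count was 2 without highCHO fish 50, noCHO fish 21 or noCHO fish 33, 6 without highCHO fish 38, and 1 to 4 under the other settings. In either direction, all sequences at that level numbered 66 of 340 in the main fit. Without those fish, in the same order, they numbered 59 of 345, 68 of 364, 55 of 344 and 81 of 339. After TMM scaling the groups did not overlap for 2 of 9 (5.59%), ssa-miR-20a-5p and dre-miR-18b-5p_1ss11TC. The median log2 fold change of the 9 was −0.63, and that of all tested sequences −0.00. dre-miR-18b-5p_1ss11TC again had the smallest adjusted p (log2 −0.69, SE 0.20, adjusted p = 0.0899), followed by ssa-miR-18a-5p_R-1 (log2 −1.34, SE 0.43, adjusted p = 0.113) and ssa-miR-20a-5p (log2 −0.64, SE 0.24, adjusted p = 0.167). ssa-miR-17-5p_R-1 had a change of −0.54 (SE 0.24, adjusted p = 0.222), with noCHO fish 20 inside the highCHO range. ssa-miR-106a-5p stood at −0.59 (SE 0.29), ssa-miR-93a-5p at −0.43 (SE 0.20), ssa-miR-20a-3-3p_R-2 at −0.81 (SE 0.52; −1.53 without highCHO fish 38 and −0.34 without highCHO fish 45), ccr-miR-20a-3p_R-1_1ss22GA at −0.63 (SE 0.33) and ssa-miR-17-3p_R-1 at −0.20 (SE 0.23). This comparison and the first share the highCHO libraries.

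The third comparison sets the meal without carbohydrate against fasting, and here the members lay close to no change. None of 9 passed with edgeR, with 0.0% of all sequences called. DESeq2 called 0 of the members and 2 of all 340 sequences. At an unadjusted p under 0.05 the members gave 0 of 9, against 6.76% of all sequences, and the groups did not overlap for 0 of 9, against 4.12%. Log2 fold changes ran from −0.38 (ssa-miR-20a-3-3p_R-2, SE 0.47) to 0.10 (ssa-miR-17-3p_R-1, SE 0.22), and 3 of 9 were below 0, against 47.6% of all sequences. The change of ssa-miR-17-5p_R-1 was −0.21 (SE 0.23), and the other 6 lay within −0.11 and 0.03 with SE of 0.19 to 0.37. The median was 0.02, as was that of all tested sequences. With SE of this size, small differences would not have been detectable.

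**Figure D3:**
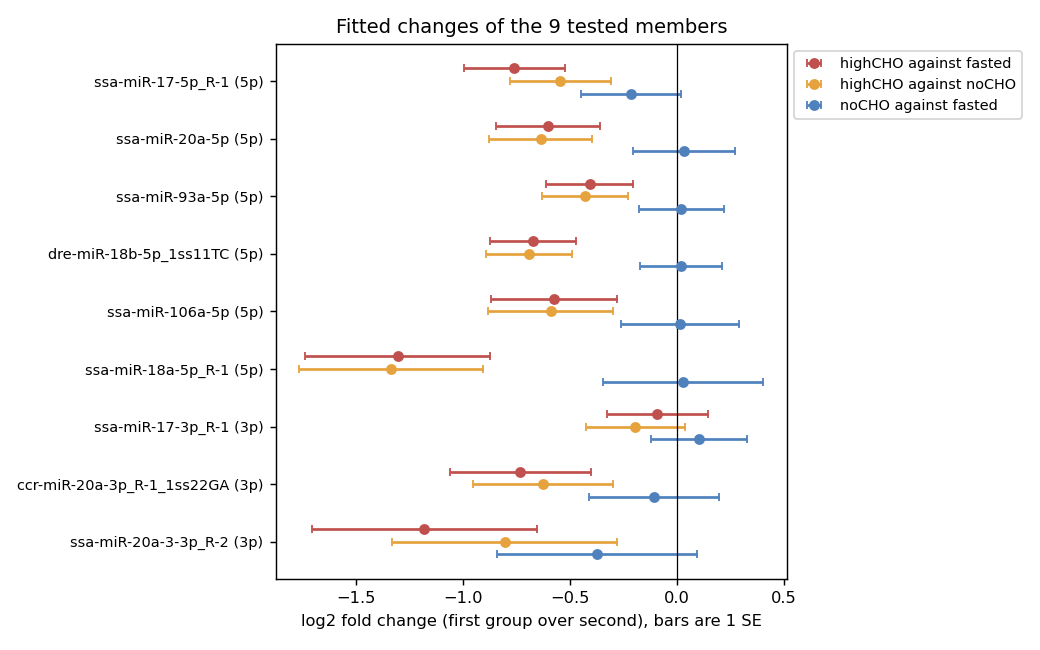
Points give the fitted log2 fold change (x axis) of the 9 tested members (rows, 5p above 3p) in the 3 comparisons, first group over second, with bars of 1 SE. Both comparisons with highCHO fish as the first group lie to the left of 0 for every tested member, from −1.34 to −0.09, while noCHO against fasted lies between −0.38 and 0.10.

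The highCHO difference was also computed with the library set as a term, since no set holds both highCHO and fasted fish, and that fit rests on the noCHO fish. The median of the members against fasted fish was then −0.79, with 8 of 9 lower, 0 called and a smallest adjusted p of 0.146. Of all 340 sequences that fit called 13, and their median was 0.003. When the percentage of short inserts entered as a term instead, the median was −0.60, with 9 of 9 lower and 0 called. Of all 340 sequences only 3 were called with that term, and their median was 0.01. Single members moved with it. ccr-miR-20a-3p_R-1_1ss22GA then stood at −0.21 (SE 0.45), against −0.73 without the term, and ssa-miR-20a-3-3p_R-2 at −0.61 (SE 0.74), against −1.18. ssa-miR-106a-5p stood at −0.97 (SE 0.41), against −0.57, and ssa-miR-18a-5p_R-1 at −1.67 (SE 0.61), against −1.31. Within the set that holds highCHO fish and noCHO fish 31 and 33, the median of 10 tested members against noCHO was −0.64. Of these members 9 were lower and 0 were called, with a smallest adjusted p of 0.343. Among all sequences tested in that fit 0 were called as well, and their median was 0.068. The 0 called therefore does not set the members apart from other sequences. For highCHO against fasted fish, the meal, the short-insert percentage and the library set cannot be told apart in the libraries themselves. Against noCHO fish the short-insert percentage was also higher without overlap, so it and the meal cannot be told apart there either. With its term in that comparison, ccr-miR-20a-3p_R-1_1ss22GA stood at −0.086 (SE 0.46), against −0.63, and ssa-miR-20a-3-3p_R-2 at −0.22 (SE 0.75), against −0.81. ssa-miR-106a-5p stood at −0.98 (SE 0.40), against −0.59, and ssa-miR-18a-5p_R-1 at −1.70 (SE 0.60), against −1.34. The median of the members was −0.52, with 9 of 9 lower and 0 called. Of all 340 sequences only 1 was called, and their median was 0.01.

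The strands were compared within each library, where scaling has no part. Over the members, 3p sequences took 11.2 ± 4.66% of counts in highCHO fish, 9.97 ± 2.34% in noCHO fish and 10.2 ± 1.78% in fasted fish. The 5p strand was therefore the major one in every group. Over all 29 sequences and 12 libraries the 3p share was 13.7% for miR-17, 17.7% for miR-20 and 19.5% for miR-106, but 5.15% for miR-18 and 3.76% for miR-93, whose 3p sequences were all too rare to be members. The miR-106 share pools miR-106a with miR-106b. Of its 153.5 counts of 3p, 64 were those of ssa-miR-106b-3p_R-1_1ss3TC, while its 5p sequences were all named miR-106a.

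Only miR-17, miR-20a and miR-106a had both strands among the members. Their 5p sequences are those with 1 of 12 values whole, so these ratios depend on the uncertain split of reads. For miR-17 the log2 ratio of 3p to 5p counts (0.5 added to each) was −2.81, −2.15, −2.52 and −1.69 in highCHO fish, −1.80, −3.11, −2.86 and −3.09 in noCHO fish and −2.996, −3.13, −2.75 and −3.31 in fasted fish. Of the highCHO fish, 3 lay above every fasted fish, and fish 38 lay within the fasted range. The means differed by 0.76 (−2.29 ± 0.481 in highCHO fish, −3.05 ± 0.236 in fasted fish, n = 4 each). The exact permutation test, two-sided, gave p = 0.0571 and an adjusted p of 0.514 over 9 comparisons. The smallest p that 4 against 4 allows is 0.0286. All miR-17 sequences among the 29 were also counted, not the members alone. The difference was then 0.90 and reached that smallest p, with an adjusted p of 0.257 over the 9 comparisons made that way. Without 1 library the difference of the members ran from 0.56 to 0.93.

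For miR-20a the ratio was −2.60 ± 1.25 in highCHO fish, −2.30 ± 0.379 in noCHO fish and −2.02 ± 0.360 in fasted fish, with highCHO fish 45 lowest at −4.36 (4 counts of 3p and 92.2 of 5p) and highCHO fish 50 highest at −1.44. For miR-106a it was −2.33 ± 1.48 in highCHO fish, −3.23 ± 0.972 in noCHO fish and −2.77 ± 0.284 in fasted fish. The −4.32 of highCHO fish 49 rests on 0 counts of 3p and 9.5 of 5p, so the 0.5 added sets it. Both spreads were widest in highCHO fish, where the counts were lowest. None of the 9 comparisons passed (adjusted p 0.514 to 0.800). A single comparison at the smallest p of the exact permutation test, 0.0286, gets an adjusted p of 0.257 over 9. No ratio could therefore have passed alone, and the test cannot decide whether the ratios differ. Single libraries decided the miR-20a and miR-106a differences. For miR-20a, highCHO minus fasted was −0.58, and 0.0052 without highCHO fish 45, while highCHO minus noCHO was −0.31, and 0.28 without that fish. For miR-106a, highCHO minus fasted was 0.44, but −0.092 without highCHO fish 50 and 1.101 without highCHO fish 49, and noCHO minus fasted was −0.47, but −0.021 without noCHO fish 31.

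**Figure D4:**
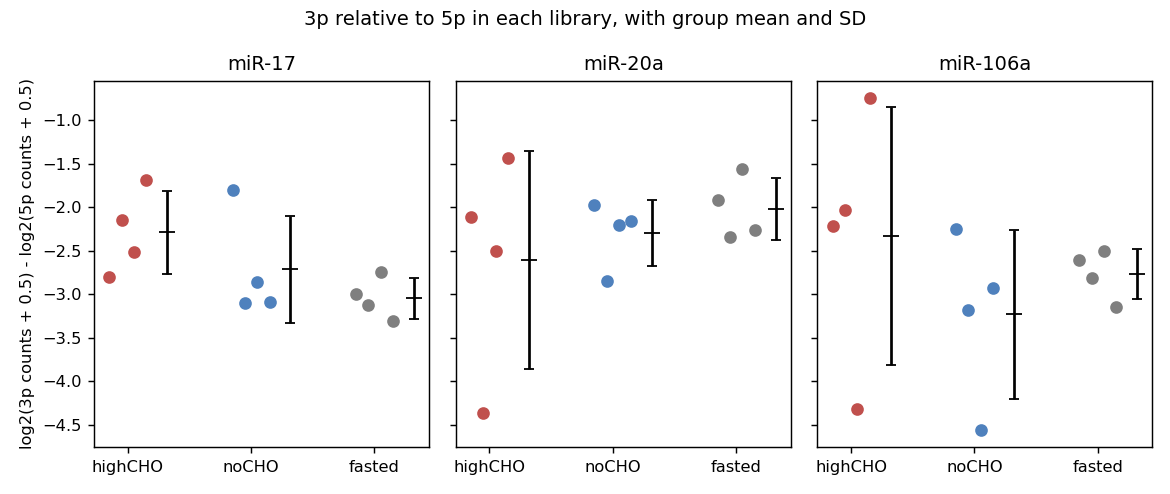
Points give the log2 ratio of 3p to 5p counts (y axis, 0.5 counts added to each) in each library for miR-17, miR-20a and miR-106a, with highCHO, noCHO and fasted fish from left to right and bars of mean ± SD (n = 4). All points lie below 0, the 5p strand being the more abundant, and highCHO fish span −4.36 to −1.44 for miR-20a and −4.32 to −0.74 for miR-106a. The −4.32 is highCHO fish 49, with 0 counts of 3p and 9.5 of 5p, so the 0.5 added sets it.

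The 5p members varied together across the 12 libraries. Pearson correlations of log2 CPM were 0.47 to 0.87 over the 15 pairs of 5p members (median 0.74). They are a description, since the libraries share depth and group differences. A read split between members also adds to each of them, which raises their correlation in part by construction. ssa-miR-17-3p_R-1 had values of −0.22 to 0.16 with the 6 members of the 5p strand, −0.07 with its own 5p strand. The pair of miR-20a 3p sequences, which differ only near the 3′ end and can share split reads, reached 0.94 with each other. Outside the members, the known sequences most like their summed level were dre-miR-140-5p_R+1 (Pearson r 0.96), ccr-miR-15a (0.88), ssa-miR-26b-5p_R-2 (0.84), dre-miR-722_L-2 (0.83) and dre-miR-19c-3p_1ss23GT (0.83), of 282 compared. Least like it were dre-miR-27b-3p_R-1 (−0.86), ipu-miR-125a (−0.83) and dre-miR-183-5p (−0.82). dre-miR-140-5p_R+1 had 84.4 ± 14.6 CPM in highCHO fish, 119 ± 11.97 CPM in noCHO fish and 121.6 ± 10.9 CPM in fasted fish.

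The other microRNAs of the clusters were read from a list of miR-19, miR-25, miR-92 and miR-363, with 46 sequences of which 15 were tested. In highCHO against fasted fish 4 of the 15 passed lower and 0 higher (2.94% and 3.24% of all sequences), all 4 of them miR-19 (7 tested, median log2 −1.11), and the median of the 15 was −0.07. dre-miR-19a-3p_L+1R-2, the most abundant miR-19, had 278 ± 37.2 CPM in highCHO fish, 531 ± 153 CPM in noCHO fish and 715 ± 171 CPM in fasted fish (highCHO against fasted, log2 −1.36, SE 0.25, adjusted p = 0.00723). ssa-miR-19d-3p_R-1, the next, stood at 315 ± 116, 318 ± 98.7 and 293 ± 18.8 CPM in highCHO, noCHO and fasted fish (log2 0.10, SE 0.28). The 3p strands of miR-25 and miR-92 showed log2 changes near 0, −0.04 (SE 0.17) for dre-miR-25-3p, 0.15 (SE 0.13) for ssa-miR-92a-3p and 0.32 (SE 0.22) for ssa-miR-92b-3p. dre-miR-25-5p_2ss18GA19CT, at 49.6 ± 19.5 CPM in highCHO fish and 19.8 ± 7.89 CPM in fasted fish, did not pass (log2 1.36, SE 0.39, adjusted p = 0.0548). miR-363 was too low to test, with dre-miR-363-3p_R-1 at 1.15 and 22.1 CPM in highCHO fish 45 and 49 and 0 in the other 10 libraries, and dre-mir-363-p5_1ss11AC at 0.379 CPM in fasted fish 13 alone. In highCHO against noCHO fish 1 of the 15 passed lower and 0 higher (1.18% of all sequences each way), and in noCHO against fasted fish 0 passed. With the short-insert term 0 of all 340 sequences passed lower in highCHO against noCHO fish.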

How the data were processed

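Per the file headers, the authors deposited read counts per library at each filtering step and, per microRNA sequence, an estimated count and a normalized signal, which was not used for tests. Of the member values 43.3% were whole (within 1e-09). Bowtie 1.1.1 is named in the submitters' processing notes, with no step attached. For the genome build, the microRNA database and the way shared reads were divided, the answer is not given in the sources used here. The deposited table had 0 columns of samples other than these.

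For testing, each estimated count was rounded to a whole number. The tools were R 4.3.3 and edgeR 4.0.16 (TMM normalization, expression filter by group, 340 sequences with 99.9% of counts, biological coefficient of variation 0.411), in a quasi-likelihood model of the 12 libraries that left 9 residual degrees of freedom. P-values were two-sided and Benjamini-Hochberg adjusted over the 340. The SE was the fold change over the root of F. Levels used unrounded counts. Strand ratios were compared by two-sided exact permutation over 70 arrangements (SciPy 1.17.1). Intervals and floors cover counting error only. The labels number the fish separately and name no batch or pairing.

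The members, lists and alternatives were chosen with earlier results of these data known. Every member was named. Of the cluster list the 2 most abundant sequences per family were named, as were the 5 most and 3 least correlated known sequences (log2 CPM, prior count 1). The fit was tested on simulated data. Further marker lists overlapped between the groups in all 3 comparisons and summed, over the 12 libraries, to 1487 to 4826 CPM (erythrocyte), 19419 to 58115 CPM (leukocyte), 7769 to 12461 CPM (endothelial), 6.90 to 187 CPM (muscle, with miR-208 at 0) and 4.42 to 37.4 CPM (neural). Alternatives were other scalings and filters, DESeq2 1.42.0, a fit robust to outliers, fits of 2 groups at a time, known names, sums by mature name, terms for library set and short inserts, and each library left out. Fits within a library set were chosen after seeing the data.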

Additional observations from a re-analysis of the deposited data

Results flagged for a closer look

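In 4 of 42 groups of 4 libraries examined, 1 fish stood apart from the other 3 by more than 0.829 of the range of the group. About 1 in 20 groups would be picked out by chance. These were fasted fish 8 for ssa-miR-17-5p_R-1 (204 CPM, against 173 to 177 CPM in the other fasted fish), fasted fish 10 for ccr-miR-20a-3p_R-1_1ss22GA (23.3 CPM, against 16.9 to 17.3 CPM), noCHO fish 21 for ssa-miR-18a-5p_R-1 (25.2 CPM, against 16.9 to 18.3 CPM) and noCHO fish 31 for ssa-miR-106a-3p_R-1 (0.990 CPM, against 5.73 to 6.20 CPM). The last rests on 2 counts. No highCHO library was among them.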

How the results depend on the processing

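The count of members called in highCHO against fasted fish was 0 with edgeR, 1 with DESeq2 (ssa-miR-17-5p_R-1) and 0 under the other 10 settings. Over the 12 fits that leave out 1 library it was 0 to 1, being 1 without highCHO fish 38 (ssa-miR-17-5p_R-1) and without highCHO fish 49 (ssa-miR-18a-5p_R-1); the cause was not tested. In the other comparisons it was 0 under every setting run, with 4 members given no adjusted p by DESeq2 in highCHO against noCHO fish. ssa-miR-17-3p_R-1 changed sign in highCHO against fasted fish with sequences summed by mature name (0.077), with the library set as a term (0.070) and without fasted fish 10 (0.031; range without 1 library −0.21 to 0.031), and in noCHO against fasted fish when scaled to the library total (−0.10), without noCHO fish 20 (−0.029) and without fasted fish 13 (−0.0042; range −0.029 to 0.17). Without 1 library, the difference in strand ratio ran for highCHO minus fasted fish from 0.56 to 0.93 (miR-17), −0.97 to 0.0052 (miR-20a) and −0.092 to 1.101 (miR-106a), for highCHO minus noCHO fish from 0.22 to 0.73, −0.70 to 0.28 and 0.37 to 1.57, and for noCHO minus fasted fish from 0.029 to 0.46, −0.38 to −0.089 and −0.79 to −0.021. Scaling to the library total put the summed level in fasted fish at 656 CPM, against 596 CPM. The summed level was then 556 CPM in noCHO fish, against 572 CPM, and 384.5 CPM in highCHO fish, against 389 CPM. Single highCHO and noCHO libraries overlapped under that scaling, noCHO fish 20 lying below highCHO fish 38 and 49. The same scaling took the median of all tested sequences in highCHO against fasted fish to −0.19 and that of the members to −0.87, a difference of −0.68, and in noCHO against fasted fish to −0.17 and −0.16, with 9 of 9 members below 0. With a mean count of at least 100, 3 members were left. All sequences called in highCHO against fasted fish numbered 21, 3 to 54 under other settings and 7 to 25 without 1 library. In highCHO against noCHO fish they numbered 8, 0 to 52 and 2 to 18, and in noCHO against fasted fish 0, 0 to 4 and 0 to 2. The 54, 52 and 4 came from the fit with no filter on low counts, which tested 1576 sequences, against 340 in the main fit. No paired analysis was possible because the groups share no fish number.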
